A study of Homo sapiens with 12 samples.

Results

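The replication-dependent histone genes make the bulk of the histone proteins that package newly copied DNA. They were taken here as every gene with the symbol H1-1 to H1-6, or with a symbol that starts with H2AC, H2BC, H3C or H4C and a number, or with a former symbol of the HIST1 to HIST4 series. This rule found 92 genes in the RefSeq gene table. Of these, 46 were measured among the 19775 genes of the array that a probe set names on its own. The measured members were 6 linker histone H1 genes, 9 H2A genes, 14 H2B genes, 8 H3 genes and 9 H4 genes. They include 2 pseudogenes, H2AC5P and H4C10P, and 1 gene found by its former symbol alone, H3-4. Of the 46 that were not measured, 19 appear only on probe sets that several histone genes share, which are described after the classes.

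Expression was measured on 12 Affymetrix arrays in U-87 MG, an established human glioma cell line. Short hairpin RNA had been stably transfected into all cells, as a control hairpin (shControl) or as one against p105 (shp105), the product of NFKB1 and precursor of an NF-kB subunit. Each line received 100 uM temozolomide (TMZ), a DNA-methylating drug used against glioma, or the vehicle DMSO for 16 h. This made 4 groups of 3 arrays: shControl with DMSO, shControl with TMZ, shp105 with DMSO and shp105 with TMZ. The labels call the 3 arrays of a group biological replicates. They do not say whether these came from separate transfections or cultures, nor whether a line was 1 clone or a pool, so the p-values reflect only how far these samples spread. All values below are log2 expression levels, and n is 3 arrays in every group.

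Histones H2A, H2B, H3 and H4 form the protein core of the nucleosome, and H1 binds the DNA that enters and leaves it. Cells transcribe these genes mainly in S phase, when DNA is copied, with NPAT as the coactivator that the clustered genes share. Their usual mRNAs have no poly(A) tail but end in a stem-loop, which the protein SLBP binds and which the U7 machinery helps to form. Some of the genes also give polyadenylated mRNAs. The labels name the standard Affymetrix preparation of labelled cRNA, which as background primes at poly(A) tails, so the signal of a histone gene may lean on its polyadenylated form. The share of each form was not measured. Many of the genes are near-identical copies, so a probe set can also pick up RNA of a relative, most of all one whose name ends in _s_at or _x_at. Of the 46 members, 3 were read by an _s_at and 7 by an _x_at probe set, and the values of those 10 are uncertain in this respect.

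The upstream sequences of 4 windows are printed. Those of H1-2, H2BC12 and H2BC5 belong to genes with large differences between the lines. The fourth is shared by H2AC6 and H2BC4, which face away from each other and differed in opposite directions. The letters are those of RefSeq, build GRCh38.p14. The windows lie at chr6:26123927-26124171 (plus strand, upstream of H2AC6 as printed and of H2BC4 on the other strand), chr6:27146859-27147108 (minus strand), chr6:26056471-26056720 (minus strand) and chr6:26157871-26158120 (plus strand). Each ends at the base before the annotated start of the gene as printed, and all are upstream of the transcribed part. Capitals mark 3 words on either strand: CCAAT, the core of the box of that name, then TATAAA, the TATA box, and last the octamer ATTTGCAT. A word on the other strand appears as its reverse complement.
H2AC6 and H2BC4: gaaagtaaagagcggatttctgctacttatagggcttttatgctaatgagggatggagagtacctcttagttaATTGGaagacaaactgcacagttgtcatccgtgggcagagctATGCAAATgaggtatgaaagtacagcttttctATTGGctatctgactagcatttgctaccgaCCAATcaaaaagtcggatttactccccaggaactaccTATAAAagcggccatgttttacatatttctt
H2BC12: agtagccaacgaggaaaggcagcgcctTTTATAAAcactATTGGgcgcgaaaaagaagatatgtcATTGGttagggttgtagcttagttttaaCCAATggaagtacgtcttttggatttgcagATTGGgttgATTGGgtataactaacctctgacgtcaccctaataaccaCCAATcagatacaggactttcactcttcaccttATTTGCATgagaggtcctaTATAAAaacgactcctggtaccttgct
H1-2: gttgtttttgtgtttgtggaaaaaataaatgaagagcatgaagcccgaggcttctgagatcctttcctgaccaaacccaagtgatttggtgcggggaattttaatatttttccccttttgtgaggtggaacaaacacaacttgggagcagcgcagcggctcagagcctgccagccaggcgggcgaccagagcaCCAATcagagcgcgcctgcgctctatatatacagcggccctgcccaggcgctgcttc
H2BC5: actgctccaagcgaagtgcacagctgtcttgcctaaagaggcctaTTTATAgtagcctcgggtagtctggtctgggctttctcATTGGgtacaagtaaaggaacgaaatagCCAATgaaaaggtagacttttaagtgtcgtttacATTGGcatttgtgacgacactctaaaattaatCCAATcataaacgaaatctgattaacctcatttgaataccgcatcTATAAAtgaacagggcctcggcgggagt
The first 2 words are general promoter elements, and the octamer is known as the element that POU2F1 binds in H2B promoters. The window shared by H2AC6 and H2BC4 holds all 3 words, as does that of H2BC12, where a pair of TATAAA hits on opposite strands overlap. The H2BC5 window holds CCAAT and TATAAA, and the H1-2 window holds CCAAT alone. A match is a description of these letters and not a binding site.

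Upstream windows of 250 bases were found for 41 of the 46 members, and not for H2AC5P, H2BC12L, H3C11, H4C1 and H4C10P. CCAAT stood in the windows of 6 of 6 H1, 8 of 8 H2A, 13 of 13 H2B and 7 of 7 H3 genes but in 2 of 7 H4 genes, against 33.0% of all 27305 promoters of that length. TATAAA stood in 28 of the 41, among them 11 of 13 H2B genes, against 11.1% of all promoters. ATTTGCAT stood in 10 of 13 H2B and 6 of 8 H2A windows and in 0 of 6 H1, 0 of 7 H3 and 0 of 7 H4 windows, against 1.66% of all promoters. All 3 words were searched on both strands. Some H2A and H2B genes are divergent neighbours whose windows overlap by 193 to 245 bases, so 4 such pairs count part of the same DNA in both classes.

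Of facts that touch every comparison, array medians lay between 5.04 and 5.09, and within a group the arrays had correlations of 0.997 to 0.998. NFKB1, the hairpin's target, had a mean level of 7.32 in shControl cells and 7.20 in shp105 cells with DMSO, a line difference of -0.12 (limma adjusted p = 0.260). With TMZ it was -0.25 (adjusted p = 0.0204). Mean levels of the hybridization spike-ins, bacterial transcripts added before hybridization, were 10.63 in shControl with DMSO, 10.95 in shControl with TMZ, 11.13 in shp105 with DMSO and 11.32 in shp105 with TMZ. The gap between the GAPDH probe sets at both transcript ends ran in the same order, from 0.252 over 0.301 and 0.361 to 0.397. That of the ACTB probe sets did not, at 3.02, 2.85, 3.07 and 3.06, and the 18S rRNA probe sets had means of 12.67, 12.67, 12.41 and 12.52. Among markers, VIM had a mean of 14.8 with the control hairpin and DMSO, while GFAP, the astroglial marker, had one of 5.05. Between the lines in DMSO, 0 of 4 leukocyte, 0 of 3 endothelial and 0 of 3 neuronal markers and 1 of 4 epithelial markers (EPCAM, -0.39) were called, and of 7 glioma, astroglial or mesenchymal markers OLIG2 was higher (1.22) and CD44 lower (-0.25). Over all genes 19.9% were called in this comparison, so marker counts this small do not test the identity of the cells. The part of the end gaps, the rRNA level and these markers in the histone results was not tested, and the spike-in level enters below as a covariate.

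In DMSO, many replication-dependent histone genes were lower in shp105 than in shControl cells. The largest of these differences were those of some H2B genes and the linker histone H1-2. Of the 46 members, 21 were lower and 1, H2AC6, was higher at an adjusted p under 0.05 (limma, Benjamini-Hochberg over all 19775 genes). The same rule called 19.9% of all genes, 11.6% lower and 8.34% higher. The median line difference, shp105 minus shControl, was -0.20 over the members and -0.01 over all genes. With TMZ in both lines, 14 members were lower and 1 higher, against a background of 21.1% of all genes called, 11% lower and 10.1% higher, and the median was again -0.20 against -0.01. In these bulk samples, fewer cells of a type, such as cells in S phase, and less RNA per cell cannot be told apart.

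Most members were dim. The mean level of 26 of the 46 lay above 4.06, the highest mean among 27 control probe sets for Bacillus genes, and only 9 reached the median of all gene means, 6.34. All 9 of these brighter members, H1-2, H2AC14, H2AC25, H2BC5, H2BC6, H2BC9, H2BC12, H2BC12L and H4C11, were lower in shp105 cells in DMSO, and 8 of the 9, all but H2AC25, were lower in TMZ. Among all genes at or above the median level, 31.4% were called in DMSO and 32.6% in TMZ. Of the 37 dimmer members, 13 were called in DMSO (35.1%, against 8.44% of all dimmer genes) and 7 in TMZ (18.9%, against 9.57%). For the called genes H2AC6, H2AC16, H2BC3, H2BC11 and H3C1 in DMSO, and H2AC6, H2AC8, H2AC16 and H2BC3 in TMZ, the mean of at least 1 line lay below 4.06, so the size of those differences is uncertain.

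**Figure D1:**
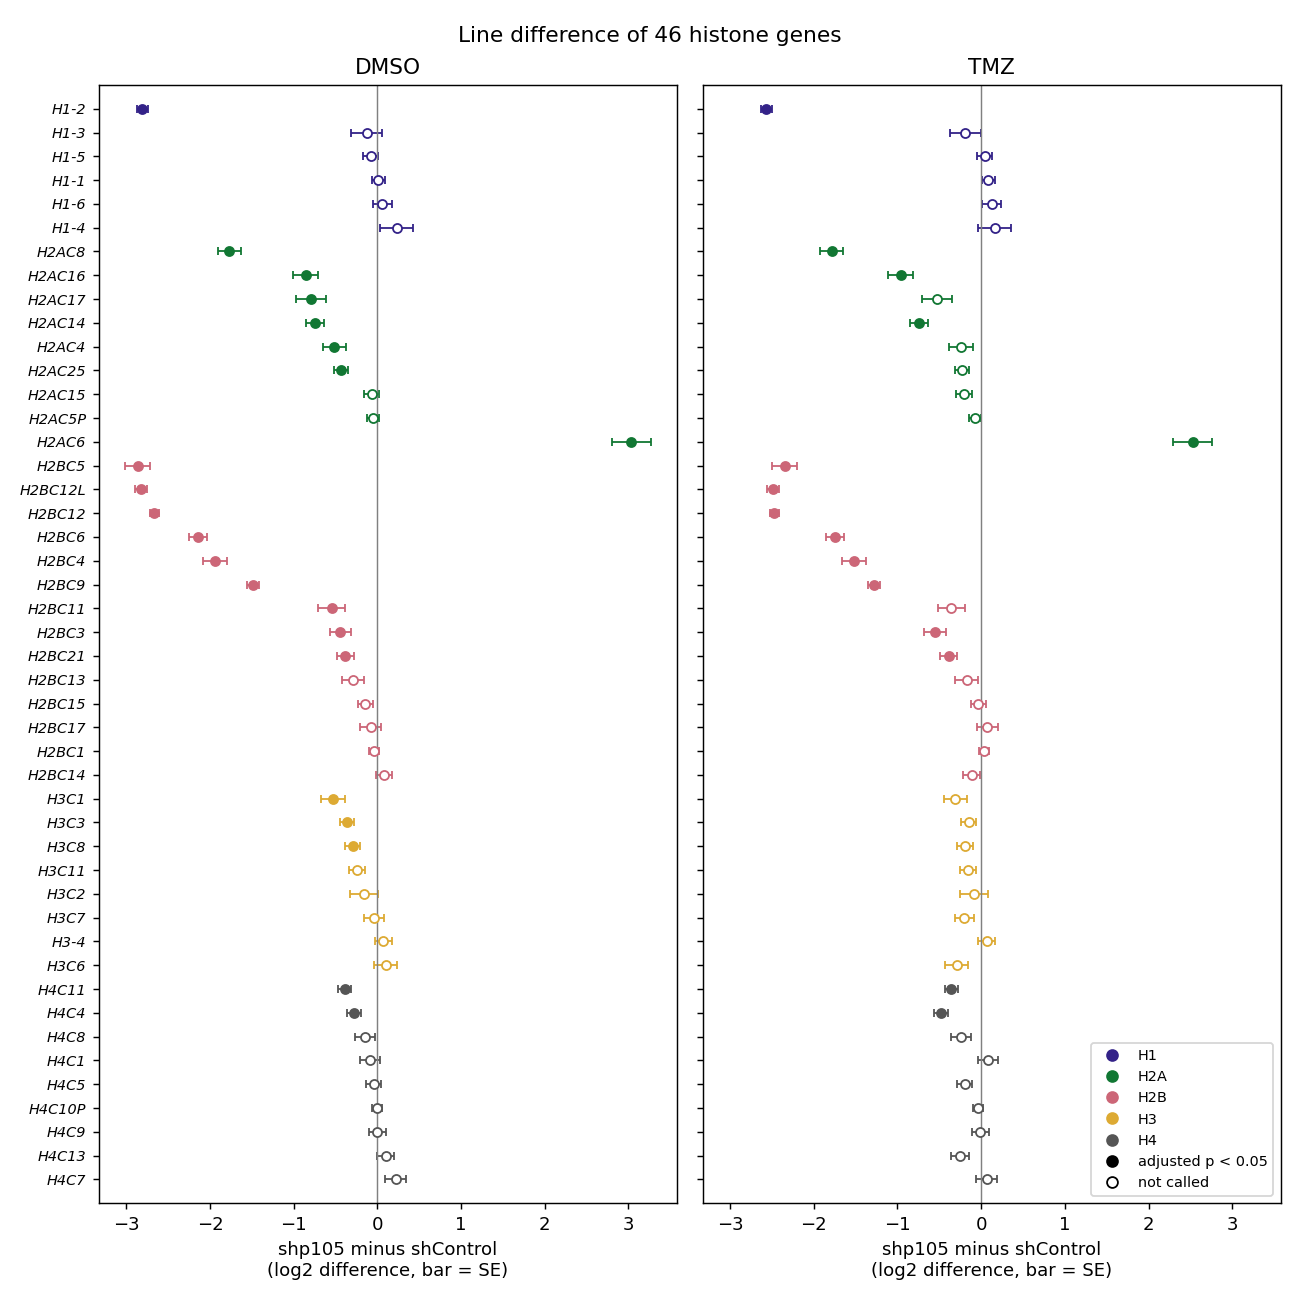
Line difference (shp105 minus shControl, log2, horizontal axis) of each of the 46 measured members in DMSO and in TMZ, with bars of 1 SE and filled points for an adjusted p under 0.05. Most called members lie left of 0. H1-2, H2BC12, H2BC12L and H2BC5 reach beyond -2 in both treatments and H2BC6 in DMSO alone. H2AC6 is the only called member to the right, at 3.03 and 2.53.

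The counts changed with the probe sets kept and with the spike-in level. Without _s_at and _x_at probe sets, 36 members were left and 13 were called in DMSO and 7 in TMZ, all lower, and H2AC6 had no value. With the mean spike-in level as a covariate, 9 members were called in DMSO, 8 lower and 1 higher, and 11 in TMZ. Those 8 were H1-2, H2AC8, H2BC4, H2BC5, H2BC6, H2BC9, H2BC12 and H2BC12L, and the higher one was H2AC6. Spike-in levels ran with the groups, from 10.63 in shControl with DMSO to 11.32 in shp105 with TMZ. Line and spike-in level can therefore be separated only in part. A call lost with this covariate can stem from a wider SE and does not show that the difference depends on the spike-in level.

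Among the linker histones, H1-2 was the only one of 6 that differed between the lines by the test. That is 16.7% of the class in each treatment, against 19.9% of all genes in DMSO and 21.1% in TMZ. H1-2 is one of the somatic H1 subtypes. It read 10.60, 10.60 and 10.59 in the 3 arrays of shControl cells with DMSO and 10.21, 10.32 and 10.20 with TMZ. In shp105 cells it read 7.84, 7.70 and 7.82 with DMSO and 7.60, 7.81 and 7.64 with TMZ. Every shp105 array lay more than 2 log2 units below every shControl array. The line difference was -2.81 (SE 0.066, adjusted p = 8.86e-11) in DMSO, 7.01-fold lower, and -2.57 (SE 0.066, adjusted p = 2.14e-10) in TMZ, 5.92-fold lower.

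The other 5 H1 genes lay low on the array, with group means from 3.36 to 5.23. H1-3, H1-4 and H1-5 are somatic linker histones as well, and H1-6 is the testis form. H1-1 read 4.60, 4.43 and 4.43 in shControl cells with DMSO and 4.23, 4.38 and 4.34 with TMZ, and 4.65, 4.41 and 4.43 in shp105 cells with DMSO and 4.48, 4.34 and 4.39 with TMZ. H1-3 read 5.02, 5.40 and 5.27 in shControl cells with DMSO and 5.10, 5.14 and 5.24 with TMZ, and 5.32, 5.00 and 4.98 in shp105 cells with DMSO and 5.17, 5.28 and 4.45 with TMZ. H1-4 read 3.96, 4.04 and 3.54 in shControl cells with DMSO and 3.75, 3.58 and 3.76 with TMZ, and 3.85, 3.82 and 4.57 in shp105 cells with DMSO and 3.85, 4.11 and 3.64 with TMZ. In each of these 3 the groups of both lines overlapped under either treatment. H1-5 read 3.41, 3.42 and 3.49 in shControl cells with DMSO and 3.67, 3.35 and 3.32 with TMZ, and 3.23, 3.46 and 3.38 in shp105 cells with DMSO and 3.46, 3.49 and 3.51 with TMZ. H1-6 read 4.10, 4.59 and 4.52 in shControl cells with DMSO and 4.57, 4.36 and 4.45 with TMZ, and 4.46, 4.46 and 4.46 in shp105 cells with DMSO and 4.47, 4.74 and 4.54 with TMZ. Groups overlapped here too, and the line differences of the 5 genes in DMSO ran from -0.13 (H1-3, adjusted p = 0.723) to 0.23 (H1-4, adjusted p = 0.506). The class median of -0.03 in DMSO and 0.07 in TMZ therefore does not show the change of H1-2.

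**Figure D2:**
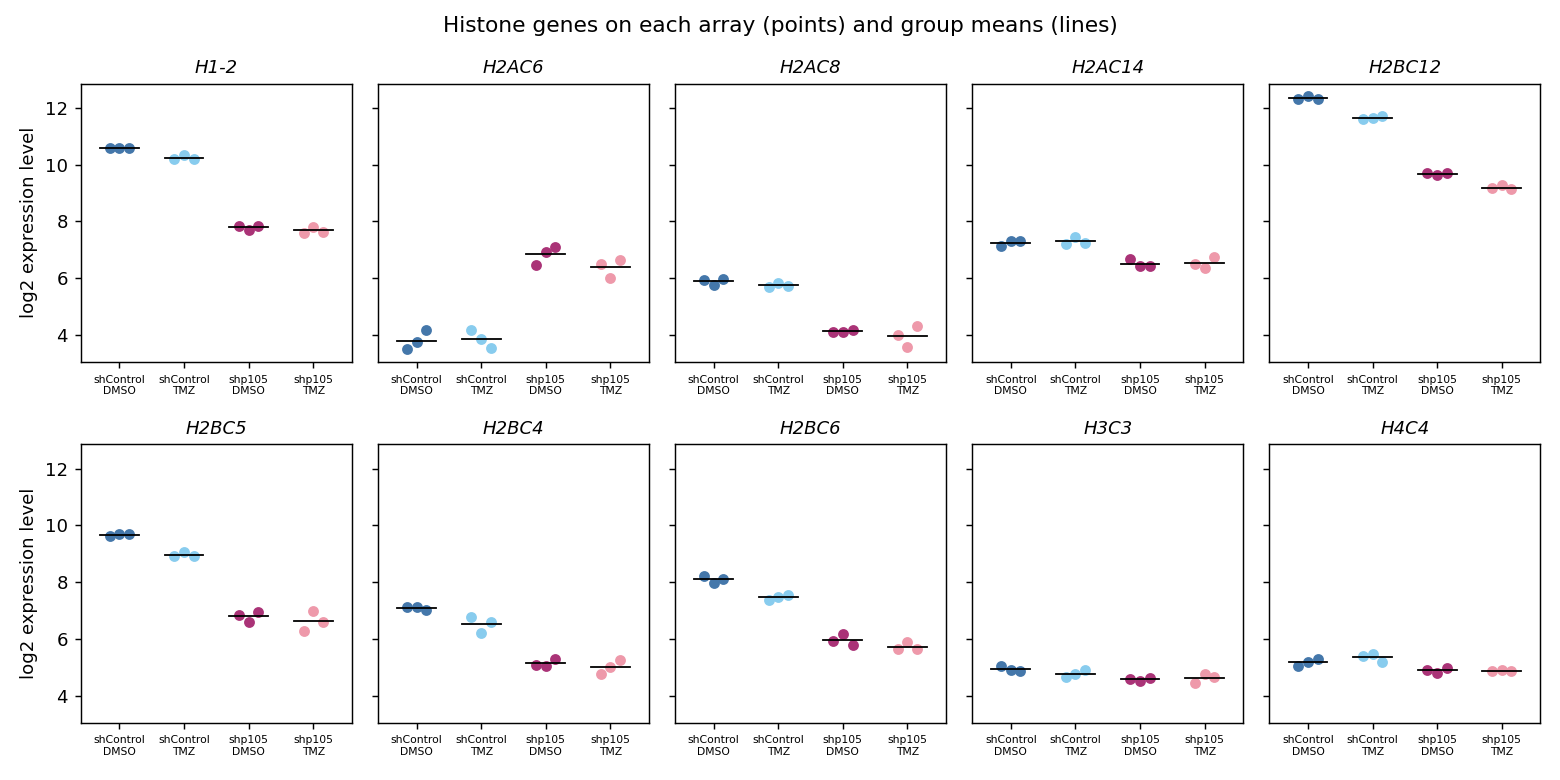
Log2 level of 10 members on each of the 12 arrays (points), by group, with group means as lines. H1-2, H2BC12, H2BC5 and H2BC4 separate the lines with no overlap and sit lower in shp105 cells, whereas H2AC6 sits higher in shp105 cells and H3C3 and H4C4 differ by less than 0.5.

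The H2A genes split in direction. Of 9 measured, 6 were lower in shp105 cells in DMSO and 1 was higher, with a class median of -0.51. In TMZ 3 were lower and 1 higher, with a median of -0.24. The called genes were 77.8% of the class in DMSO and 44.4% in TMZ, against 19.9% and 21.1% of all genes. H2AC6 was the higher gene in both treatments. It read 3.50, 3.76 and 4.16 in shControl cells with DMSO and 4.19, 3.85 and 3.54 with TMZ, against 6.47, 6.93 and 7.11 in shp105 cells with DMSO and 6.50, 6.01 and 6.65 with TMZ. The shControl means of 3.80 and 3.86 lay within the range of the control probe sets for Bacillus genes, and the shp105 means were 6.84 and 6.38. The line difference on the array scale was 3.03 (SE 0.23, adjusted p = 2.13e-06) in DMSO and 2.53 (SE 0.23, adjusted p = 1.05e-05) in TMZ. No fold is given, since the shControl signal was not above those controls. H2AC6 has 1 probe set that names it alone, an _s_at one.

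H2AC8 was lower in shp105 cells. It read 5.95, 5.77 and 5.98 in shControl cells with DMSO and 5.69, 5.84 and 5.74 with TMZ, and 4.10, 4.12 and 4.17 in shp105 cells with DMSO and 4.01, 3.59 and 4.32 with TMZ. No shp105 array reached a shControl array, and the line difference was -1.77 (SE 0.14, adjusted p = 2.93e-06) in DMSO and -1.79 (SE 0.14, adjusted p = 2.90e-06) in TMZ. H2AC16, a dim gene, read 4.36, 4.40 and 4.16 in shControl cells with DMSO and 4.66, 4.27 and 3.91 with TMZ, and 3.51, 3.46 and 3.37 in shp105 cells with DMSO and 3.26, 3.24 and 3.46 with TMZ. Its groups were apart as well, with -0.86 (SE 0.15, adjusted p = 0.00155) in DMSO and -0.96 (SE 0.15, adjusted p = 0.000674) in TMZ. H2AC14 read 7.13, 7.31 and 7.33 in shControl cells with DMSO and 7.19, 7.44 and 7.25 with TMZ, and 6.66, 6.42 and 6.44 in shp105 cells with DMSO and 6.52, 6.38 and 6.75 with TMZ. Its line difference was -0.75 (SE 0.11, adjusted p = 0.000374) in DMSO and -0.75 (SE 0.11, adjusted p = 0.000373) in TMZ, with no overlap. H2AC14 was read by an _x_at probe set. H2AC14 and H2AC16 did not pass in either treatment with the spike-in covariate. H2AC14 then had -0.69 (SE 0.27, adjusted p = 0.272) in DMSO and -0.70 (SE 0.21, adjusted p = 0.0964) in TMZ, close to its values without it, while H2AC16 had -0.26 (SE 0.32, adjusted p = 0.816) and -0.51 (SE 0.25, adjusted p = 0.335).

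H2AC25 and H2AC17 were called in DMSO but not in TMZ. H2AC25 read 7.28, 7.16 and 7.31 in shControl cells with DMSO and 6.96, 7.09 and 7.06 with TMZ, and 6.79, 6.76 and 6.87 in shp105 cells with DMSO and 6.63, 7.00 and 6.80 with TMZ, a line difference of -0.44 (SE 0.085, adjusted p = 0.00318) in DMSO and -0.23 (SE 0.085, adjusted p = 0.0775) in TMZ. H2AC17 read 4.77, 5.32 and 4.72 in shControl cells with DMSO and 5.23, 4.68 and 4.75 with TMZ, and 4.22, 3.98 and 4.23 in shp105 cells with DMSO and 4.26, 4.26 and 4.57 with TMZ, which gave -0.80 (SE 0.18, adjusted p = 0.00712) and -0.53 (SE 0.18, adjusted p = 0.0549). A call under one treatment alone does not show that the difference depends on the treatment, and in the test of that, given with the drug responses below, no member was called. In TMZ, H2AC25 passed with its probe sets averaged (-0.38, adjusted p = 0.0123), with dim genes left out (0.0282) and without array 2 of shp105 with TMZ (0.0108). H2AC17 passed in TMZ with median centring (0.0466), with trend and robust fitting (0.0145), without array 3 of shp105 with TMZ (0.0458) and without array 2 of shControl with TMZ (0.0491). With the spike-in covariate neither passed in DMSO. H2AC25 was then at -0.53 (SE 0.21, adjusted p = 0.291), a larger difference with a wider SE, and H2AC17 at -0.15 (SE 0.38, adjusted p = 0.931). H2AC4 was also called in DMSO, at -0.51 (SE 0.14, adjusted p = 0.0236), although its groups overlapped, and its call was lost without array 1 (0.0835) or 3 (0.0840) of shp105 with DMSO and without array 2 (0.0858) or 3 (0.0946) of shControl with DMSO. H2AC15 and the pseudogene H2AC5P were not called.

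H2B, the class with the most measured genes, had the most lower members. Of 14, 9 were lower in DMSO and 8 in TMZ, and 0 were higher, with medians of -0.50 and -0.47. That is 64.3% and 57.1% of the class, against 19.9% and 21.1% of all genes called. Of the H2A genes 77.8% were called in DMSO and 44.4% in TMZ. Averaged over the 14 genes of an array, the level was 6.10 (SD 0.027, n = 3) in shControl cells with DMSO and 4.97 (SD 0.049, n = 3) in shp105 cells with DMSO. With DMSO, such averages in shControl and shp105 cells were 5.33 and 4.88 for H1 and 5.24 and 5.00 for H2A. They were 4.297 and 4.114 for H3 and 4.495 and 4.422 for H4. H2BC12 was read by a plain probe set, not of the _s_at or _x_at kind. It showed 12.31, 12.41 and 12.32 in shControl cells with DMSO, 11.62, 11.63 and 11.72 with TMZ, 9.70, 9.64 and 9.70 in shp105 cells with DMSO and 9.17, 9.27 and 9.13 with TMZ. All 4 groups stood apart, both by line and by treatment. The line difference was -2.67 (SE 0.056, adjusted p = 3.43e-11) in DMSO, 6.36-fold lower, and -2.47 (SE 0.056, adjusted p = 6.79e-11) in TMZ, 5.54-fold lower.

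H2BC12L, a copy of H2BC12 on chromosome 21, read 10.49, 10.28 and 10.40 in shControl cells with DMSO and 9.68, 9.87 and 9.74 with TMZ, and 7.57, 7.60 and 7.51 in shp105 cells with DMSO and 7.26, 7.38 and 7.19 with TMZ. Its difference of -2.83 (SE 0.075, adjusted p = 2.57e-10) in DMSO and -2.49 (SE 0.075, adjusted p = 8.36e-10) in TMZ came from an _x_at probe set and cannot be separated here from RNA of H2BC12. H2BC5 read 9.62, 9.68 and 9.69 in shControl cells with DMSO and 8.93, 9.07 and 8.91 with TMZ, and 6.84, 6.60 and 6.95 in shp105 cells with DMSO and 6.27, 7.00 and 6.60 with TMZ. Its arrays were far apart by line, with -2.87 (SE 0.15, adjusted p = 9.06e-08) in DMSO and -2.35 (SE 0.15, adjusted p = 5.16e-07) in TMZ. Its 2 probe sets disagree in size: the dimmer one gave -0.33 (adjusted p = 0.0620 over all probe sets) in DMSO and -0.32 (adjusted p = 0.0689) in TMZ. Both are _x_at probe sets.

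H2BC6 read 8.23, 7.99 and 8.11 in shControl cells with DMSO and 7.36, 7.49 and 7.54 with TMZ, and 5.92, 6.17 and 5.80 in shp105 cells with DMSO and 5.64, 5.89 and 5.63 with TMZ. The line difference was -2.15 (SE 0.11, adjusted p = 6.03e-08) in DMSO and -1.74 (SE 0.11, adjusted p = 3.49e-07) in TMZ, with no overlap. H2BC4, read by a plain probe set, showed 7.12, 7.12 and 7.01 in shControl cells with DMSO and 6.77, 6.21 and 6.58 with TMZ, against 5.07, 5.06 and 5.30 and 4.75, 5.01 and 5.25 in shp105 cells. It was lower by line in both treatments, at -1.94 (SE 0.14, adjusted p = 1.84e-06) and -1.52 (SE 0.14, adjusted p = 1.52e-05). H2BC9 read 7.46, 7.47 and 7.43 in shControl cells with DMSO and 7.28, 7.42 and 7.43 with TMZ, and 5.94, 6.03 and 5.94 in shp105 cells with DMSO and 6.11, 6.23 and 5.95 with TMZ, a line difference of -1.49 (SE 0.072, adjusted p = 5.56e-08) in DMSO and -1.28 (SE 0.072, adjusted p = 2.01e-07) in TMZ. All 6 of these named H2B genes were lower in both treatments under every alternative in which they had a value. H2BC12L, H2BC5, H2BC6 and H2BC9 were read by _x_at probe sets and had no value in the alternative without such probe sets.

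Smaller differences were called for H2BC3 (-0.44 in DMSO, -0.55 in TMZ), H2BC21 (-0.38 and -0.39) and, in DMSO alone, H2BC11 (-0.55). H2BC11, with means of 3.64 in shControl and 3.10 in shp105 cells with DMSO, lay within the range of the Bacillus control probe sets in both lines, and H2BC3 in shp105 cells (3.78 with DMSO, 3.81 with TMZ). With the spike-in covariate none of the 3 passed. The line difference in DMSO was then -0.43 for H2BC11 (adjusted p = 0.735), -0.08 for H2BC21 (0.944) and 0.28 for H2BC3 (0.646), and in TMZ it was -0.16 for H2BC21 (0.753) and -0.01 for H2BC3 (0.988). These 3 lost their call in DMSO when any of several single arrays was left out, and H2BC21 also in TMZ. For H2BC11 the adjusted p was 0.0577, 0.0898 or 0.0727 without array 1, 2 or 3 of shp105 with DMSO, and 0.0596 or 0.113 without array 2 or 3 of shControl with DMSO. For H2BC21 in DMSO it was 0.0859 or 0.0649 without array 1 or 2 of shp105 and 0.0809 without array 2 of shControl. In TMZ it was 0.0705 or 0.0674 without array 1 or 2 of shp105 and 0.0674 without array 2 of shControl. For H2BC3 in DMSO it was 0.116 or 0.0577 without array 1 or 3 of shp105, and 0.0620, 0.107 or 0.0521 without array 1, 2 or 3 of shControl. The remaining 5 H2B genes, H2BC1, H2BC13, H2BC14, H2BC15 and H2BC17, had means of 2.83 to 3.77, within the range of the Bacillus control probe sets, and were not called. The class median in DMSO was -0.29 without the _s_at and _x_at probe sets.

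H3 differences were small, from -0.53 to 0.10 in DMSO. H3C1, H3C2, H3C7, H3C11 and H3-4, with means of 3.17 to 3.78, lay within the range of the Bacillus control probe sets. No H3 gene reached the median of all gene means, 6.34. Small differences of genes this dim do not show that their RNA was alike in both lines. Of 8 measured genes, 3 were lower in DMSO and 0 were called in TMZ, with medians of -0.20 and -0.18. That is 37.5% of the class in DMSO, against 19.9% of all genes, and 0% in TMZ, against 21.1%. At an unadjusted p under 0.05 (limma), 2 of the 8 H3 genes were below it in TMZ, against 6305 of all 19775 genes. H3C3 read 5.04, 4.89 and 4.88 in shControl cells with DMSO and 4.65, 4.75 and 4.91 with TMZ, and 4.59, 4.52 and 4.62 in shp105 cells with DMSO and 4.45, 4.75 and 4.66 with TMZ, a line difference of -0.36 (SE 0.087, adjusted p = 0.0115) in DMSO and -0.15 (SE 0.087, adjusted p = 0.275) in TMZ. The groups did not overlap in DMSO but did in TMZ. H3C1, a dim gene, read 3.94, 3.47 and 3.83 in shControl cells with DMSO and 3.91, 3.70 and 3.48 with TMZ, and 3.29, 3.22 and 3.13 in shp105 cells with DMSO and 3.50, 3.15 and 3.52 with TMZ, and its line difference was -0.53 (SE 0.14, adjusted p = 0.0185) in DMSO and -0.31 (SE 0.14, adjusted p = 0.157) in TMZ. H3C8, on an _x_at probe set, read 6.20, 6.42 and 6.40 in shControl cells with DMSO and 6.39, 6.30 and 6.16 with TMZ, and 5.99, 6.12 and 6.01 in shp105 cells with DMSO and 6.06, 6.26 and 5.95 with TMZ, with -0.30 (SE 0.092, adjusted p = 0.0396) and -0.19 (SE 0.092, adjusted p = 0.172).

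These H3 calls were lost when single arrays were left out. Without array 1 of shControl with DMSO the adjusted p was 0.0518 for H3C3 and 0.0781 for H3C1, and H3C1 was also lost without array 3 of that group (0.0665) or of shp105 with DMSO (0.0648). H3C8 was lost without array 2 (0.131) or 3 (0.125) of shControl with DMSO and without array 1 (0.120) or 3 (0.108) of shp105 with DMSO. With the spike-in covariate none of the 3 passed. H3C3 was then at -0.46 (SE 0.22, adjusted p = 0.387), H3C1 at -0.39 (SE 0.35, adjusted p = 0.722) and H3C8 at -0.19 (SE 0.23, adjusted p = 0.810). H3C2, H3C6, H3C7, H3C11 and H3-4, the testis H3 gene, ran from -0.24 to 0.10 in DMSO and were not called. The 2 probe sets of H3C6 disagree. The dimmer one, with a mean of 3.57, was lower in shp105 cells, at -0.41 (adjusted p = 0.0496 over all probe sets) in DMSO and -0.45 (adjusted p = 0.0286) in TMZ, while the brighter one gave 0.10 and -0.29.

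Of 9 H4 genes, 2 were lower in both treatments, H4C11 and H4C4, and 0 were higher, with medians of -0.05 in DMSO and -0.20 in TMZ. That is 22.2% of the class, near the 19.9% and 21.1% called over all genes. H4C11, on an _x_at probe set, read 6.72, 6.54 and 6.51 in shControl cells with DMSO and 6.51, 6.73 and 6.66 with TMZ, and 6.26, 6.14 and 6.19 in shp105 cells with DMSO and 6.31, 6.22 and 6.31 with TMZ. Its shp105 arrays lay below all shControl arrays, at -0.39 (SE 0.074, adjusted p = 0.00261) in DMSO and -0.36 (SE 0.074, adjusted p = 0.00460) in TMZ. H4C4 read 5.04, 5.20 and 5.30 in shControl cells with DMSO and 5.39, 5.48 and 5.20 with TMZ, and 4.92, 4.79 and 4.97 in shp105 cells with DMSO and 4.86, 4.90 and 4.86 with TMZ, a line difference of -0.28 (SE 0.085, adjusted p = 0.0356) in DMSO and -0.48 (SE 0.085, adjusted p = 0.00166) in TMZ. Its call in DMSO was lost without array 1 (0.0734) or 2 (0.126) of shp105 with DMSO and without array 2 (0.0928) or 3 (0.139) of shControl with DMSO. With the spike-in covariate neither passed in DMSO, with H4C11 at -0.63 (SE 0.17, adjusted p = 0.0927) and H4C4 at -0.34 (SE 0.21, adjusted p = 0.562), and H4C4 did not pass in TMZ (-0.52, adjusted p = 0.122). Since the genes of this class encode near-identical proteins from similar sequences, the gene to which a signal belongs is uncertain. The other 7 ran from -0.15 (H4C8) to 0.22 (H4C7) in DMSO and were not called.

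Probe sets that several histone genes share cover genes that have none of their own, but also genes read above, such as H2BC4 and H2BC6. To which of its genes such a signal belongs cannot be told. There were 20 such probe sets, tested in a fit of all 54675 probe sets, which was added after seeing the data. In DMSO 12 of the 20 were lower in shp105 cells and 0 were higher, against 12.1% of all probe sets called. In TMZ 10 were lower, against 12.8%. Many of the 20 are annotated to the same genes, so these counts and the medians below do not stand for separate genes. Of 5 shared H2B probe sets 4 were lower in DMSO (median -2.08, from -2.48 to -0.20) and 4 in TMZ (median -1.29). H2BC4, H2BC6, H2BC7 and H2BC10 each lie on 3 of the 5, and H2BC8 on all 5. Of 5 shared H2A probe sets 4 were lower in DMSO (median -0.99, from -1.91 to -0.26) and 4 in TMZ (median -1.16). H2AC18 and H2AC19 are the annotated genes of 3 of these 5. One of these, an _s_at probe set of high signal annotated to 2 H2A genes, had group means of 10.91 in shControl and 9.00 in shp105 cells with DMSO, a difference of -1.91 (SE 0.086, adjusted p = 2.21e-08 over all probe sets).

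Both probe sets shared by H2A and H3 genes were lower in DMSO (-0.75 and -0.63) and 1 of them in TMZ. Of 6 shared H4 probe sets 2 were lower in DMSO (median -0.11) and 1 in TMZ, and of 2 shared H3 probe sets 0 were called. A shared H4 probe set of high signal, annotated to 14 genes, had group means of 12.11, 12.02, 12.07 and 12.04 in shControl with DMSO, shControl with TMZ, shp105 with DMSO and shp105 with TMZ. Its line difference in DMSO was -0.04 (SE 0.061, adjusted p = 0.777 over all probe sets).

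**Figure D3:**
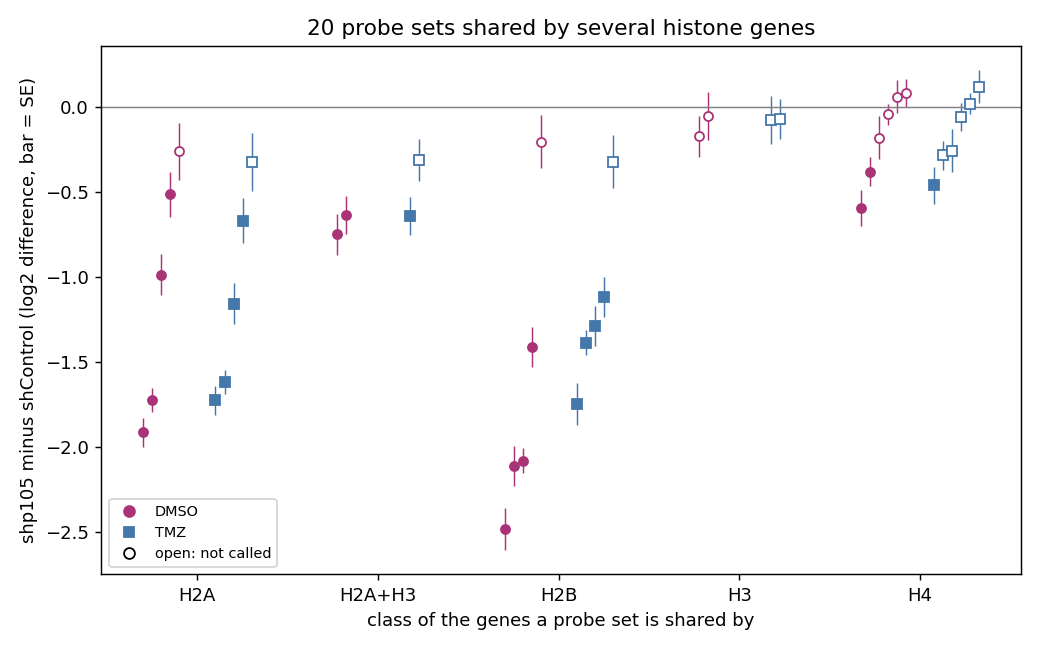
Line difference (shp105 minus shControl, log2, vertical axis, bars of 1 SE) of the 20 probe sets shared by several histone genes, by class, in DMSO (circles) and TMZ (squares), with open points for those not called. The H2B probe sets reach to -2.48 and the H2A ones to -1.91, while those of H3 lie near 0.

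On chromosome 6, where 42 of the 46 members lie, genes with large differences lay next to each other as well as next to genes with small ones. In the order of measured members, H2BC5 (-2.87 in DMSO) lies beside H2BC6 (-2.15) and H2BC4 (-1.94) beside H2AC6 (3.03). H1-2 (-2.81) lies between H3C3 (-0.36) and H1-6 (0.06). H2BC12 (-2.67) lies between H2BC11 (-0.55) and H4C9 (-0.00). The sharpest contrast was in the divergent pair H2BC4 and H2AC6, whose annotated starts are 245 bases apart and whose shared window is printed above. H2BC4 was lower (-1.94 in DMSO and -1.52 in TMZ) and H2AC6 higher (3.03 and 2.53) in shp105 cells. H2AC6 was read by 1 _s_at probe set, with shControl means of 3.80 and 3.86, within the range of the Bacillus control probe sets. The size of its difference and the gene its signal belongs to are therefore uncertain. The other divergent pairs were H2AC14 with H2BC14 (-0.75 and 0.08 in DMSO), H2AC17 with H2BC17 (-0.80 and -0.08) and H2AC15 with H2BC15 (-0.07 and -0.15). In the first 2 the H2A gene was called in DMSO and the H2B gene was not. H2BC14 and H2BC17, with means of 3.00 and 3.02, lay within the range of the Bacillus control probe sets. Their lack of a call therefore does not show that the pairs differ within themselves. H2AC14 was also read by an _x_at probe set.

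**Figure D4:**
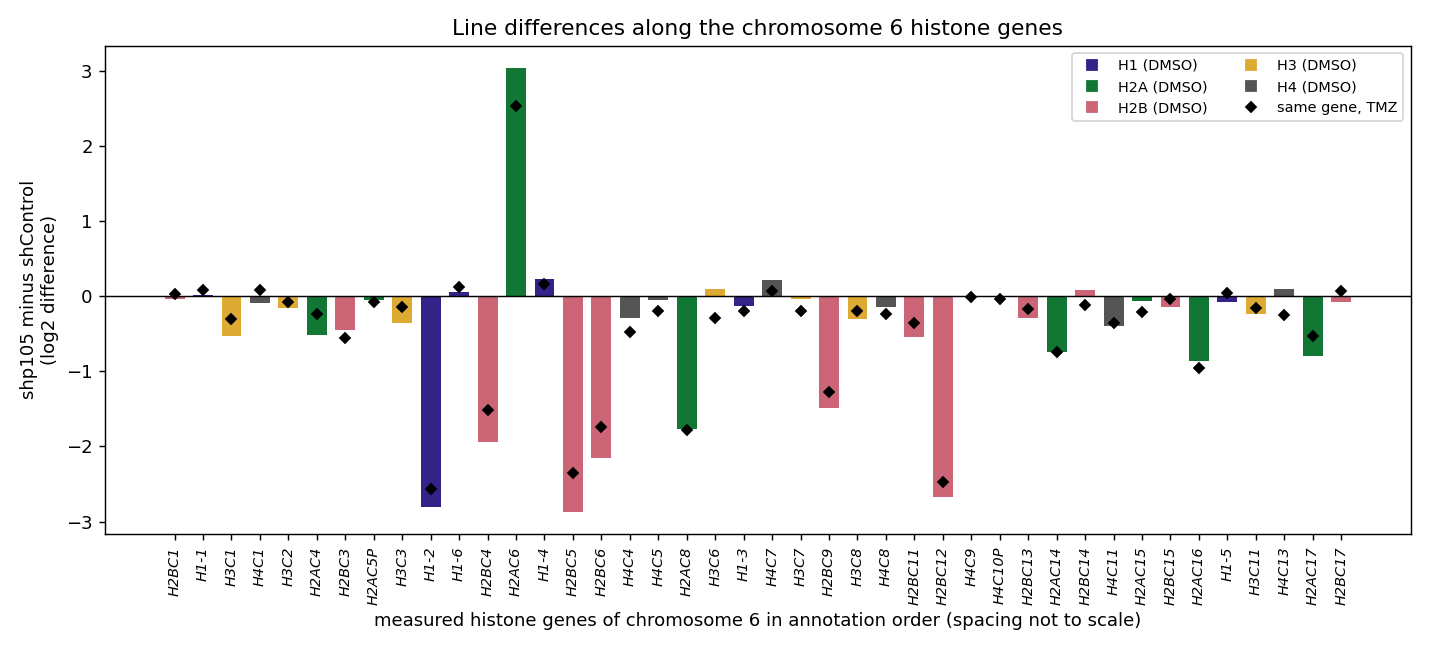
Line differences (log2) of the 42 measured members of chromosome 6 in annotation order, as bars for DMSO coloured by class and diamonds for TMZ, with spacing not to scale. Long bars below 0 stand at H1-2, H2BC4, H2BC5, H2BC6, H2AC8, H2BC9 and H2BC12, with H2BC5 and H2BC6 side by side, and H2AC6, beside H2BC4, is the long bar above 0.

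A few H2B genes were lower with TMZ, and no member of another class was called. In shControl cells 3 of 46 members were lower with TMZ and 0 higher, against 0.369% of all genes called in either direction (0.116% lower, 0.253% higher). These were H2BC12, on a plain probe set, and H2BC12L and H2BC6, on _x_at probe sets. In shp105 cells 1 member was lower, H2BC12, against 0.865% of all genes (0.217% lower, 0.647% higher). All 4 calls fell on the 9 members at or above the median level, where 0.637% of all genes were called in shControl and 1.44% in shp105 cells. The median response was -0.05 over the members in shControl cells and -0.03 in shp105 cells, against -0.00 and 0.01 over all genes. At an unadjusted p under 0.05 (limma), 7 of the 46 members in shControl cells and 4 in shp105 cells were below it. Of all 19775 genes, 2180 in shControl and 3225 in shp105 cells were below it.

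H2BC12, with the array values given above, fell by 0.69 on the log2 scale with TMZ in shControl cells (SE 0.056, adjusted p = 0.000338), 1.61-fold. In shp105 cells it fell by 0.49 (SE 0.056, adjusted p = 0.00277), 1.41-fold. The groups did not overlap in either line. The first call was lost with the spike-in covariate (-0.75, adjusted p = 0.0632) and the second when the fit held only the groups compared (-0.49, adjusted p = 0.0774). H2BC12L fell by 0.63 in shControl cells (SE 0.075, adjusted p = 0.00568), and its response was -0.29 (SE 0.075, adjusted p = 0.0901) in shp105 cells. Its call did not pass with the spike-in covariate (0.176) or when only the groups compared were fitted (0.0649). H2BC6 fell by 0.65 in shControl cells (SE 0.11, adjusted p = 0.0289). This call was lost when any 1 of the 6 arrays compared was left out (adjusted p from 0.0702 to 0.139) and with the replicate block (0.0674). It was also lost with the spike-in covariate (0.76), with only the compared groups (0.0649) and in the fit of all probe sets (0.0503).

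Other members had responses in shControl cells that did not pass here but passed under some alternatives. With trend and robust fitting H1-2 (adjusted p = 0.00180), H2BC5 (0.0190) and H2BC4 (0.0232) were called, with dim genes left out H1-2 (0.00748) and H2BC5 (0.0200), with quantile normalization H1-2 (0.0477) and with only the compared groups H2BC5 (0.0210). H2BC5 had a response of -0.69 (SE 0.15, adjusted p = 0.0997) in shControl cells and -0.17 (SE 0.15, adjusted p = 0.613) in shp105 cells. H2BC4 had -0.56 (SE 0.14, adjusted p = 0.164) and -0.14 (SE 0.14, adjusted p = 0.687). The linker histone H1-2 had -0.35 (SE 0.066, adjusted p = 0.0531) in shControl cells, just outside the threshold, and -0.11 (SE 0.066, adjusted p = 0.462) in shp105 cells. H2AC6 had 0.05 (SE 0.23, adjusted p = 0.961) and -0.45 (SE 0.23, adjusted p = 0.359). H3 responses ran from -0.17 to 0.15 in shControl cells and H4 responses from -0.20 to 0.18. Of the shared probe sets, 1 H2B set was lower with TMZ in shControl cells, at -0.67 (SE 0.074, adjusted p = 0.00389 over all probe sets, of which 0.113% were called), and 0 of 20 were called in shp105 cells, against 0.185%.

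**Figure D5:**
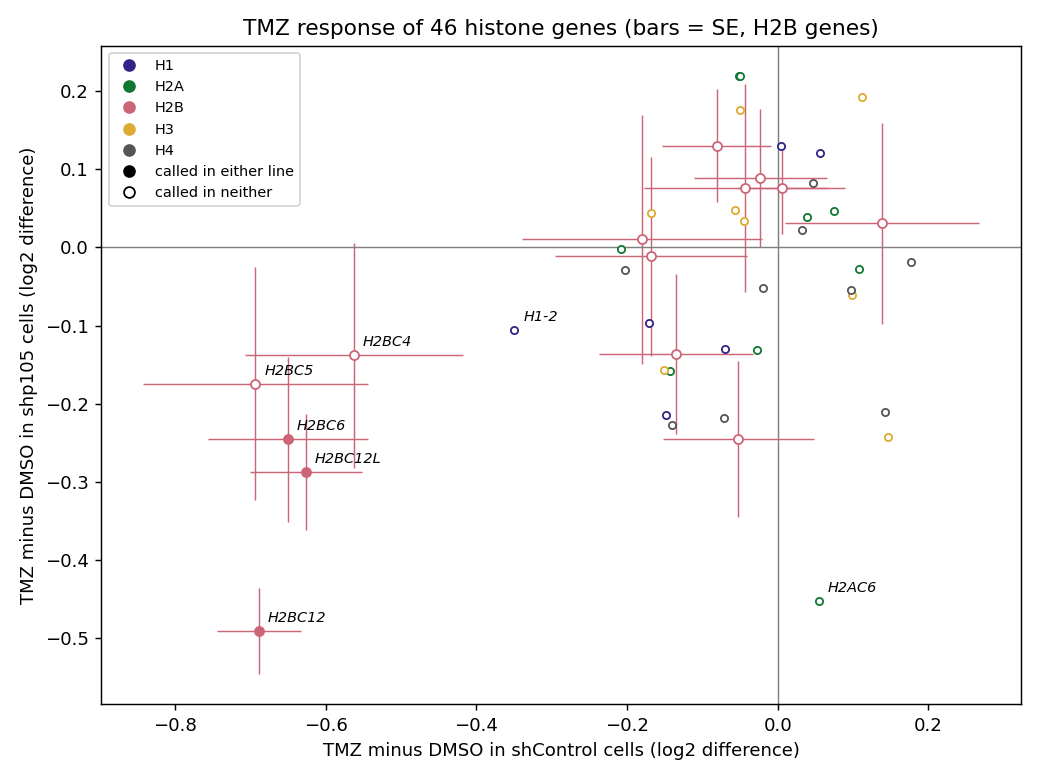
TMZ response (TMZ minus DMSO, log2) of the 46 members in shControl cells (horizontal axis) against shp105 cells (vertical axis), with bars of 1 SE for H2B genes and filled points for members called in either line. H2BC12 lies at -0.69 and -0.49, and H2BC12L, H2BC5, H2BC6 and H2BC4 lie between -0.69 and -0.56 on the horizontal axis and between -0.29 and -0.14 on the vertical one.

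Whether TMZ acted differently in the lines was tested as the difference of both responses. No member was called, nor was any of the 19775 genes (limma, 0% called). At an unadjusted p under 0.05 there were 6 members, H1-2, H2BC5, H2BC6, H2BC12, H2BC12L and H4C13, and 1266 genes in all. The difference, shp105 minus shControl response, was 0.20 (SE 0.079, adjusted p = 0.769) for H2BC12, 0.34 (SE 0.11, adjusted p = 0.679) for H2BC12L and 0.52 (SE 0.21, adjusted p = 0.769) for H2BC5. It was 0.40 (SE 0.15, adjusted p = 0.745) for H2BC6, 0.24 (SE 0.093, adjusted p = 0.758) for H1-2 and -0.35 (SE 0.15, adjusted p = 0.769) for H4C13. Since a p above the threshold does not show that the lines responded alike, these values stand as a description.

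Histones that are made outside S phase as well, 11 of 14 listed, had 3 members lower and 0 higher in DMSO, and 3 lower and 1 higher in TMZ, against 19.9% and 21.1% of all genes called in DMSO and TMZ. The medians were -0.14 and -0.01. H2AJ, an H2A variant, was lower at -1.36 (SE 0.092, adjusted p = 8.09e-07) in DMSO and -1.31 (SE 0.092, adjusted p = 1.22e-06) in TMZ. H2AZ2, a form of the variant H2A.Z, was lower at -0.39 (SE 0.065, adjusted p = 0.00122) and -0.53 (SE 0.065, adjusted p = 0.000120). The linker variant H1-10 was lower at -0.48 (SE 0.061, adjusted p = 0.000157) and -0.41 (SE 0.061, adjusted p = 0.000473). The testis gene H1-7 was higher in TMZ, at 0.30 (SE 0.093, adjusted p = 0.0376). TMZ called 0 of the 11 in either line (limma), against 0.369% of all genes in shControl and 0.865% in shp105 cells. An unadjusted p under 0.05 was seen for 1 in shControl and 4 in shp105 cells, against 2180 and 3225 of all 19775 genes.

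Among the factors that transcribe histone genes or form and degrade their mRNA, 21 of 22 listed, 2 were higher and 4 lower in each treatment, against 19.9% and 21.1% of all genes called in DMSO and TMZ, and 31.4% and 32.6% of those at or above the median level. The medians were -0.04. In DMSO, SRRT, a partner of the cap-binding complex, was at -0.26 (SE 0.056, adjusted p = 0.00573) and CASP8AP2, a component of histone locus bodies, at -0.26 (SE 0.058, adjusted p = 0.00657). SYMPK, a scaffold of the cleavage complex, was higher at 0.37 (SE 0.080, adjusted p = 0.00593). LSM10, a subunit of the U7 particle, was higher in TMZ, at 0.26 (SE 0.069, adjusted p = 0.0206). SLBP and NPAT, chosen after their values were seen, had line differences of -0.16 (SE 0.048, adjusted p = 0.0339) and -0.11 (SE 0.080, adjusted p = 0.415) in DMSO. TMZ called 0 of the 21 in either line (limma), against 0.369% of all genes in shControl and 0.865% in shp105 cells. An unadjusted p under 0.05 was seen for 2 in shControl and 4 in shp105 cells, against 2180 and 3225 of all 19775 genes.

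Of 22 histone chaperones (23 listed), 3 were higher and 2 lower in DMSO and 1 higher and 2 lower in TMZ, against 19.9% and 21.1% of all genes. ASF1B, which hands H3 and H4 to assembly factors, was lower at -0.26 (SE 0.054, adjusted p = 0.00457) in DMSO, and HJURP, the chaperone of CENPA, in TMZ at -0.20 (SE 0.050, adjusted p = 0.0143). SET (0.24 in DMSO) and NAP1L1 (0.14 in DMSO, 0.16 in TMZ), chaperones of several histones, had positive differences. TMZ called 0 in shControl cells (limma), against 0.369% of all genes, and 1, lower, in shp105 cells, against 0.865% (0.217% lower). An unadjusted p under 0.05 was seen for 2 in shControl and 5 in shp105 cells, against 2180 and 3225 of all 19775 genes.

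S phase genes other than histones had more lower than higher calls by line, though most of them were not called. Of 25 (26 listed), 7 were lower and 1 higher in DMSO and 6 lower and 1 higher in TMZ. Over all genes at or above the median level 31.4% and 32.6% were called, and over all genes 19.9% and 21.1%. By direction, 11.6% of all genes were lower and 8.34% higher in DMSO, and 11% lower and 10.1% higher in TMZ. Of the 9888 genes at or above the median level, 1836 were lower in DMSO and 1714 in TMZ. The medians were -0.07 and 0.01. TYMS, thymidylate synthase, was higher in shp105 cells at 0.61 (SE 0.061, adjusted p = 2.15e-05) in DMSO and 0.66 (SE 0.061, adjusted p = 1.23e-05) in TMZ. RRM2, a subunit of ribonucleotide reductase, was lower at -0.34 (SE 0.044, adjusted p = 0.000180) in DMSO. GINS4 and MCM7, parts of the replicative helicase, were lower at -0.39 (SE 0.067, adjusted p = 0.00147) and -0.25 (SE 0.053, adjusted p = 0.00493) in DMSO. With TMZ, GINS4 rose by 0.49 in shControl cells (adjusted p = 0.0106) and RRM2 by 0.42 in shp105 cells (adjusted p = 0.00161), while 0 of 25 were called lower in either line (limma). Over all genes TMZ called 0.369% in shControl cells (0.116% lower) and 0.865% in shp105 cells (0.217% lower). The response was below 0 for 9 of the 25 in shControl and 6 in shp105 cells. In each line 8 had an unadjusted p under 0.05 in either direction, against 2180 of all 19775 genes in shControl and 3225 in shp105 cells.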

How the data were processed

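RNA of 12 U-87 MG samples was measured on Affymetrix arrays. The deposited values are log2 levels per probe set, which the authors made with RMA and Affymetrix Power Tools, per the submitters' processing notes. Their versions and the annotation release are not given in the sources used. RMA, as background, includes quantile normalization, under which a shift of all genes would not be seen. Of 54675 probe sets, 41097 had 1 gene symbol, 1801 several and 11777 none in the probe table given for the array, and symbols were updated through RefSeq (GRCh38.p14). Each gene was read by its probe set of highest mean, and dim genes were kept. The members and gene lists were chosen with earlier results of these data known.

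One limma fit (lmFit and eBayes, version 3.58.1, R 4.3.3) of the 4 group means over 12 arrays gave 2-sided tests, adjusted by Benjamini-Hochberg over 19775 genes and called under 0.05. It was tested on simulated data. Differences are log2, with the SE of the fit. Named with all array values are all H1 members and, in each other class, up to 6 called members by smallest adjusted p; of each list, up to 4 called genes by the same order; SLBP and NPAT were added after their values were seen. Upstream windows are RefSeq sequences. Alternatives were averaged probe sets per gene, no _s_at and _x_at probe sets, dim genes left out, quantile normalization or median centring, eBayes with trend and robust fitting, only the compared groups, the replicate block, the spike-in level as covariate, each array left out, and a fit of all probe sets. The number of arrays limits the precision. Plots were drawn with matplotlib 3.10.9.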

Additional observations from a re-analysis of the deposited data

How the results depend on the processing

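Of the members called, 9 of 22 in DMSO and 10 of 15 in TMZ by line kept their call under every alternative in which they had a value, and 0 of 3 and 0 of 1 of the TMZ calls did in shControl and shp105 cells. Among the kept, H2AC6, H2BC12L, H2BC5, H2BC6, H2BC9 and, in TMZ, H4C11 had no value without _s_at and _x_at probe sets. In 1 case a direction turned: H2BC3 in DMSO was 0.28 (adjusted p = 0.646) with the spike-in covariate, which follows the groups. That covariate left 9 called by line in DMSO (1 higher, 8 lower) and 0 for TMZ in shControl cells, and moved class medians to -0.22 (H1), -0.19 (H2A), -0.0006 (H3) and -0.27 (H4) in DMSO, -0.13 (H1) and -0.29 (H2B) in TMZ, and -0.38 and -0.19 for the TMZ response of H1 genes in shControl and shp105 cells; the cause was not tested.

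Without _s_at and _x_at probe sets, 36 members remained; 13 were called by line in DMSO, 7 in TMZ and 1 for TMZ in shControl cells, and the H2B medians by line were -0.29 and -0.17. With genes below the median level left out, the 9 members left were all called by line in DMSO and in TMZ, 5 for TMZ in shControl cells and 2 in shp105 cells, with no H3 gene among them. Medians were then, by line in DMSO, -2.81 (H1), -2.67 (H2B) and -0.39 (H4), in TMZ -2.57 (H1), -0.49 (H2A) and -2.35 (H2B), for TMZ in shControl cells -0.35 (H1) and -0.65 (H2B), and in shp105 cells -0.25 (H2B) and 0.082 (H4). Fewer genes tested and fewer members are part of this setting. Trend and robust fitting called 6 for TMZ in shControl cells and 2 in shp105 cells, and only the compared groups called 0 in shp105 cells.

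With each array left out in turn, 16 to 20 members were called by line in DMSO, 15 to 16 in TMZ, 2 to 2 for TMZ in shControl cells, 1 to 1 in shp105 cells and 0 for the difference of responses. The H1 median of the TMZ response ran from -0.14 to -0.030 in shControl cells and from -0.15 to 0.017 in shp105 cells.

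Replicate numbers did not pair the samples: deviations of same-numbered arrays correlated at -0.142 to 0.122 over 18 pairs, 2 of them over 0.1, and in 13 of 36 cases an array correlated best with its own number. With the replicate block, 20 and 15 members were called by line in DMSO and TMZ, 2 and 1 for TMZ in shControl and shp105 cells, and 0 for the difference.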
